A study of Mus musculus with 67 samples.

Results

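DNA replication and S phase genes were followed through mouse intestinal crypts after irradiation and through cultured intestinal organoids. The set held 39 genes, listed by name for the work they do in copying DNA and not by their values here. Earlier results of these data were known when the list was made. All 39 were present among the 29579 genes measured. They fell into 9 role groups: the MCM helicase (6 genes), origin licensing (4), origin firing (5), clamp and clamp loader (4), polymerases, primase and RPA (5), lagging strand maturation (2), nucleotide supply (5), chromatin and histone supply (4), and S phase control (4). Bulk RNA-seq was available for 18 crypt libraries and 49 organoid libraries, in TPM, a transcript level scaled for gene length and for the library's total. The crypts came from the small intestine of female C57BL/6 mice of 8 weeks. There were 2 libraries from unirradiated mice (Normal), 2 each at days 1, 2, 3 and 5 after a single dose of 12 Gy (IR), and 2 at each of those days from irradiated mice that were also gavaged daily with valproic acid (VPA, which blocks histone deacetylases) at 40 mg/kg and EPZ6438 (which blocks EZH2, the enzyme that methylates histone H3 at lysine 27) at 0.6 mg/kg (IR+VE).

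The organoids, epithelial cultures grown from small intestinal crypts of mice of 6 to 12 weeks, were kept in 10 media. ENR held EGF (50 ng/mL), Noggin (100 ng/mL) and R-Spondin 1 (500 ng/mL). 8C held EGF (50 ng/mL), FGF2 (20 ng/mL), R-Spondin 1 conditioned medium (10%), the BMP receptor inhibitor LDN193189 (0.2 µM), GSK-3 Inhibitor XV (0.1 µM), Pexmetinib (1 µM), VPA (500 µM) and EPZ6438 (2 µM). ENR, 8C, 8C without VPA and EPZ6438 (8C-VE) and 8C without EPZ6438 (8C-E) had 7 libraries each, and 8C without VPA (8C-V) had 6. ENR with VPA and EPZ6438 added (ENR+VE, doses not stated) and 8C without EGF, without bFGF (FGF2), without Pexmetinib or without the GSK-3 inhibitor had 3 each. The study's figure legends count mice as replicates, but no label says which mouse or culture a library came from, so the p-values measure the spread between these libraries.

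DNA is copied once per cell cycle. In G1, the origin recognition complex with Cdc6 and Cdt1 loads the ring of MCM proteins onto origins, and at the start of S phase kinases, Mcm10, Cdc45 and the GINS complex turn the ring into an active helicase. Polymerases, held to DNA by the Pcna clamp, then copy both strands, while enzymes of nucleotide synthesis supply building blocks and chaperones repack the new DNA into chromatin. Most of these genes are classical targets of E2F transcription factors, and in the intestine S phase is found mainly in the stem and transit-amplifying cells of the crypt.

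The promoters were read first, because a shared E2F motif is what members of such a set are known for. In the RefSeq promoter sequences of GRCm38.p6, which run from 250 bases before to 50 bases after each gene's start, 34 of the 39 members had an entry, and Ccne2, Gins1, Gins2, Mcm4 and Pole had none. The 4 motifs searched were TTTCCCGC, TTTGGCGC, TTTCGCGC and TTTGCCGC, each on both strands. At least 1 match was present in 14 of 34 members (41.2%), against 2.6% of the 27025 promoters read. By role, 4 of 5 MCM genes and 3 of 4 licensing genes held a match, 1 each of the firing, clamp, lagging strand, chromatin and S phase control groups, and 2 of the polymerase group. None of the 5 nucleotide supply genes did. In 9 members a match lay before the start: Cdc6, Gins3, Mcm5, Mcm6, Mcm7, Orc1, Pola1, Rfc3 and Uhrf1. A match describes letters in this window, and a promoter without one only lacks these letters there. The stretches of the helicase genes Mcm5, chr8:75109336-75109387 (+ strand, 173 to 122 bases before the start), and Mcm6, chr1:128359725-128359835 (- strand, 130 to 20 bases before the start), and of the DNA polymerase alpha gene Pola1, chrX:93632266-93632313 (- strand, 158 to 111 bases before the start), are printed from 5′ to 3′ on the gene's strand because they show single, overlapping and repeated matches, and capitals mark the matches. In Mcm5 and Mcm6 matches on opposite strands overlap in 1 palindrome-like block, and Mcm6 holds a further match.
Mcm5: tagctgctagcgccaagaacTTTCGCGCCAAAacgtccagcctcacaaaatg
Mcm6: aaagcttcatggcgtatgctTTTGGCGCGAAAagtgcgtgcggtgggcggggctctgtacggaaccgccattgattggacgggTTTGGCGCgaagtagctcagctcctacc
Pola1: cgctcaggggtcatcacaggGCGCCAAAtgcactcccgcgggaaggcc

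The 39 genes lie on 14 chromosomes of the mm10 build (GENCODE vM21), so they are not a gene cluster. Exons of 14 members overlap exons of another gene, the longest overlaps being 4648 bases between Chaf1a and Ubxn6, 2758 between Gins2 and Gse1 and 1909 between Fen1 and Gm10143. Pcna and Tyms have named pseudogenes. The libraries were unstranded, and how the counting treated shared reads is not given in the sources used here. The values of these genes are therefore less certain than the rest.

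Epithelial markers (Epcam, Cdh1, Vil1 and keratins) summed to 3886 to 8313 TPM in crypts and 6941 to 14004.5 TPM in organoids, and the summed markers of muscle, fibroblasts and endothelium stayed at or under 5.90 TPM. Markers of T cells reached 43.1 TPM, of B and plasma cells 156 TPM and of myeloid cells 42.0 TPM in crypts. The crypt columns summed to 819346 to 910935 TPM and the organoid columns to 983801 to 988144, and crypt and organoid levels were therefore not compared. Crypt totals were 877229 to 877315 in Normal, 873594 to 877215 on IR day 1 and 850191 to 869908 on IR day 2. They were 819346 to 843367 on IR day 3 and 908241 to 910935 on IR day 5. The main comparisons did not equalise these totals. TPM keeps no sequencing depth, so the counting error behind each value is unknown.

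The first question was how the replication genes moved in crypts after irradiation. On the deposited scale few members fell on day 1, most fell on days 2 and 3, and a few rose above Normal on day 5. Summed over Mcm2 to Mcm7, the level was 85.4 to 142 TPM in Normal, 75.4 to 92.3 on day 1, 31.5 to 35.2 on day 2, 34.6 to 65.1 on day 3 and 178 to 233 on day 5. Of the 38 members tested, 2 fell on day 1, all 38 on day 2 and 31 on day 3, and 7 rose on day 5 (limma on log2(TPM + 1), Benjamini-Hochberg adjusted p under 0.05 over 10802 genes). Gins3, whose mean over the crypt libraries was under 1 TPM, was not tested. In bulk crypts, fewer cells in S phase and less RNA per cell cannot be told apart.

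These counts stand beside the movement of all genes, which on this scale was large. Among all genes tested, 10.7% were called lower on day 1, 46% on day 2 and 70.5% on day 3, and 19.7% were called higher on day 5. The median log2 difference from Normal was -0.53 for the members and -0.36 for all genes on day 1, -1.56 and -0.61 on day 2, -1.11 and -1.03 on day 3, and 0.49 and 0.27 on day 5. Thus the members lay well below the other genes on day 2 and near them on day 3. With a change of at least 2-fold also required, 34 members were lower on day 2 (all genes 26.2%) and 20 on day 3 (all genes 51.3%). Transcripts of the mitochondrial genome, which share the same total, took 12.7 to 18.1% of TPM in Normal, 29.7 to 31.8% on day 1, 32.6 to 39.9% on day 2, 37.9 to 48.4% on day 3 and 11.8 to 12.3% on day 5. Much of this share was a single gene, mt-Atp8. It stood at 52861.5 to 88147.9 TPM in Normal, 175186 to 187817 on day 1 and 156078 to 231940 on day 2. On days 3 and 5 it stood at 207735 to 243105 and 71688.7 to 72534.3 TPM. When libraries were quantile normalised, 27 of 38 members fell on day 2 (all genes 16.9%), while on day 3, 8 fell (all genes 24.9%) and 3 rose (all genes 22.8%). With the mitochondrial genes removed before rescaling, when Gins3 also reached the minimum and 39 members were tested, 35 fell on day 2 (all genes 20.9%) and 18 on day 3 (all genes 43.4%). Under both scalings the share of members that fell on day 3 was near that of all genes. The 8 that fell with quantile normalization were Cdt1, Pola1, Pold1, Lig1, Tk1, Uhrf1, Chaf1a and Clspn, and the 3 that rose were Rrm2, Ccne1 and Ccne2. These 8, with Mcm6, Mcm10, Cdc45, Rfc4, Prim1, Pole, Fen1, Rrm1, Slbp and E2f1, were the 18 that fell with mitochondrial genes removed. The day 3 falls of the other members passed under neither of these scalings. On day 2, Mcm2, Mcm4, Orc1, Cdc6, Gins2, Pole, Rpa2, Rrm2, Chaf1b, Ccne1 and Ccne2 did not pass with quantile normalization. With mitochondrial genes removed, Mcm4, Pole and Rrm2 did not pass, and 4 of the 5 firing genes then tested fell.

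**Figure D1:**
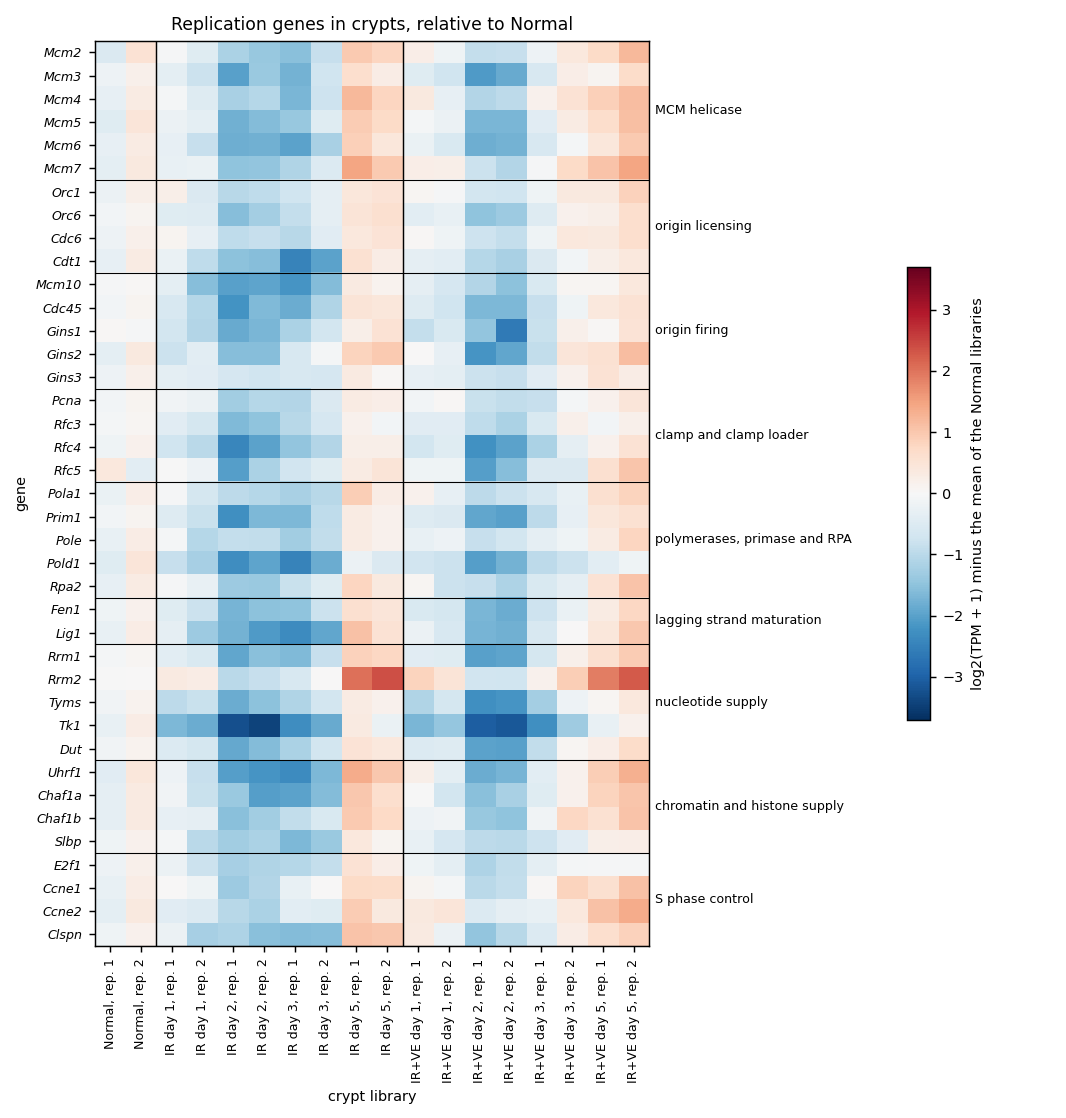
Level of each of the 39 members in each of the 18 crypt libraries, as log2(TPM + 1) minus the gene's mean over the 2 Normal libraries; columns are libraries ordered by treatment and day, rows are genes ordered by role, and blue is below and red above Normal. The columns of IR days 2 and 3 are blue over nearly every row and those of day 5 are mostly red; after quantile normalization 3 members on day 3 were called higher than Normal (all genes 22.8%) and 8 lower (all genes 24.9%).

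The MCM genes encode the 6 subunits of the ring helicase that unwinds DNA at the fork. Mcm6 (chr1:128331590-128359664) measured 17.5 and 27.7 TPM in the Normal libraries, 17.9 and 11.8 on day 1, 5.55 and 5.72 on day 2, 4.86 and 9.13 on day 3 and 41.7 and 29.7 on day 5. Both day 2 and day 3 pairs lay under the Normal pair, and both day 5 values lay above it. The gene fell by 1.80 on the log2 scale on day 2 (standard error 0.32, adjusted p = 5.0e-04) and fell by 1.58 on day 3 (standard error 0.32, adjusted p = 4.5e-04). Mcm2 measured 7.66 and 17.0 TPM in the Normal libraries, 11.1 and 8.23 on day 1, 4.58 and 3.69 on day 2, 3.26 and 5.84 on day 3 and 23.4 and 20.5 on day 5. Mcm3 measured 17.7 and 23.2 TPM in the Normal libraries, 15.4 and 11.3 on day 1, 4.30 and 7.18 on day 2, 5.38 and 11.8 on day 3 and 31.8 and 24.8 on day 5. Mcm4, the least abundant of the ring, was at 5.91 and 9.33 TPM in the Normal libraries, 7.09 and 5.05 on day 1, 2.65 and 3.10 on day 2, 1.64 and 3.96 on day 3 and 18.3 and 13.6 on day 5. For these genes, too, neither day 2 library reached the Normal range. The level of Mcm5 (chr8:75109569-75128439) was 17.4 and 32.7 TPM in the Normal libraries, 20.4 and 18.3 on day 1, 6.21 and 7.15 on day 2, 8.44 and 17.1 on day 3 and 47.2 and 39.5 on day 5. That of Mcm7 was 19.1 and 31.9 TPM in the Normal libraries, 20.3 and 20.8 on day 1, 8.21 and 8.41 on day 2, 11.0 and 17.3 on day 3 and 70.4 and 49.8 on day 5. All 6 fell on day 2, by 1.13 to 1.80, and all 6 fell on day 3, although with quantile normalization the day 3 differences of Mcm2 (0.03), Mcm5 (0.18) and Mcm7 (0.30) turned positive. On day 3 no MCM gene passed with quantile normalization, and Mcm6 alone passed with mitochondrial genes removed. On day 5 Mcm7 rose by 1.23 (adjusted p = 0.0074) and Mcm4 rose by 0.99 (adjusted p = 0.034), and the other 4 did not pass. Over all roles the day 5 rises called with quantile normalization were those of Mcm4, Mcm7, Rrm2 and Uhrf1, and with mitochondrial genes removed those of Mcm7, Rrm1, Rrm2, Uhrf1 and Chaf1b.

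Of the licensing genes, Cdt1 (chr8:122568015-122573554), which brings the MCM ring to origins, measured 11.2 and 17.7 TPM in the Normal libraries, 11.6 and 6.84 on day 1, 4.23 and 4.04 on day 2, 1.74 and 2.86 on day 3 and 21.5 and 17.2 on day 5. Its lowest pair was on day 3, at which it fell by 2.21 (standard error 0.28, adjusted p = 1.1e-05). All 4 licensing genes fell on day 2, and Orc6, Cdc6 and Cdt1 fell on day 3. The quantile-normalised day 3 difference of Cdc6, the loader ATPase, was 0.33. Mcm10 (chr2:4989714-5012791), which helps to start the helicase, was at 8.51 and 9.06 TPM in the Normal libraries, 6.62 and 2.26 on day 1, 1.45 and 1.55 on day 2, 1.14 and 2.22 on day 3 and 11.4 and 9.63 on day 5. It fell by 1.97 on day 2 (adjusted p = 5.2e-04) and fell by 1.90 on day 3 (adjusted p = 2.2e-04). Its day 3 call was not made with quantile normalization. Of the other firing genes, Cdc45, Gins1 and Gins2 fell on day 2, and Cdc45 and Gins1 also on day 3. Gins3 was listed at 1.01 and 1.59 TPM in the Normal libraries, 0.773 and 0.690 on day 1, 0.480 and 0.382 on day 2, 0.510 and 0.475 on day 3 and 1.86 and 1.35 on day 5, with both day 2 and both day 3 values under both Normal values and no test.

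Pcna (chr2:132249162-132253314), the sliding clamp and the most abundant member in the Normal crypts, measured 101 and 118 TPM in the Normal libraries, 99.4 and 93.0 on day 1, 44.5 and 51.6 on day 2, 51.3 and 74.7 on day 3 and 135 and 129.7 on day 5. Its days 2 and 3 values lay under both Normal values, and it fell by 1.17 on day 2 (standard error 0.24, adjusted p = 0.0014) and fell by 0.81 on day 3 (adjusted p = 0.0074), the latter turning to 0.12 with quantile normalization. Rfc4 (chr16:23113943-23127737), a subunit of the complex that loads the clamp, was at 17.1 and 21.7 TPM in the Normal libraries, 11.1 and 9.21 on day 1, 2.80 and 4.15 on day 2, 6.40 and 8.65 on day 3 and 22.5 and 22.6 on day 5, and it fell by 2.20 on day 2 (standard error 0.28, adjusted p = 4.5e-05). Rfc3 and Rfc5, also loader subunits, fell on day 2, and of the pair Rfc3 fell on day 3. Pold1 (chr7:44532746-44548849), the catalytic subunit of DNA polymerase delta, measured 9.81 and 18.8 TPM in the Normal libraries, 7.08 and 5.25 on day 1, 1.96 and 2.82 on day 2, 1.66 and 3.06 on day 3 and 11.6 and 9.11 on day 5. Its level was already under both Normal values on day 1, when it fell by 1.04 (adjusted p = 0.036), a call made neither with quantile normalization nor with mitochondrial genes removed, and it fell by 2.12 on day 2 and fell by 2.15 on day 3. Pola1, Prim1 and Pole, for the other replicative polymerases and primase, fell on days 2 and 3, and Rpa2, for single-strand binding, fell on day 2.

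Lig1 (chr7:13277283-13311433), the ligase that joins lagging strand fragments, measured 10.7 and 15.9 TPM in the Normal libraries, 10.1 and 4.56 on day 1, 3.17 and 2.26 on day 2, 1.79 and 2.69 on day 3 and 28.6 and 19.4 on day 5. It fell by 1.93 on day 2 (adjusted p = 5.4e-04) and fell by 2.13 on day 3 (adjusted p = 8.0e-05), and Fen1, the flap nuclease, fell on both days. In the nucleotide group, Tk1 (chr11:117815526-117826092), the thymidine kinase of dividing cells, had the largest fall of all members. It was at 39.6 and 59.2 TPM in the Normal libraries, 14.6 and 12.9 on day 1, 4.19 and 3.61 on day 2, 8.99 and 12.7 on day 3 and 60.7 and 40.7 on day 5. The 2 day 1 values lay under both Normal values, and the log2 level fell by 1.74 on day 1 (standard error 0.31, adjusted p = 0.003) and fell by 3.34 on day 2 (standard error 0.31, adjusted p = 3.0e-06). Rrm2 (chr12:24708241-24714146), a subunit of ribonucleotide reductase, took another course, at 14.4 and 14.9 TPM in the Normal libraries, 18.6 and 18 on day 1, 6.89 and 7.57 on day 2, 9.37 and 14.8 on day 3 and 63.6 and 80.7 on day 5. Both its day 5 values were above every Normal value, and it rose by 2.22 (standard error 0.27, adjusted p = 4.4e-05), the largest rise of that day. Rrm1, the partner subunit, rose by 0.82 on day 5 (adjusted p = 0.043), and Tyms and Dut, both of the thymidylate route, fell on days 2 and 3.

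Uhrf1 (chr17:56303321-56323486), which brings the maintenance DNA methyltransferase to newly copied DNA, measured 7.98 and 15.0 TPM in the Normal libraries, 9.48 and 5.62 on day 1, 1.94 and 1.64 on day 2, 1.40 and 2.77 on day 3 and 30.3 and 23.0 on day 5. It fell by 2.11 on day 2 (adjusted p = 2.7e-04), fell by 2.00 on day 3 (adjusted p = 1.2e-04) and rose by 1.19 on day 5 (adjusted p = 0.018). Chaf1a and Chaf1b, subunits of the chromatin assembly factor, and Slbp, which binds histone mRNA, fell on days 2 and 3, and Chaf1b rose by 0.85 on day 5 (adjusted p = 0.049). Clspn (chr4:126556935-126593903), the checkpoint adaptor at the fork, was listed at 1.88 and 2.63 TPM in the Normal libraries, 1.79 and 0.381 on day 1, 0.466 and 0.0973 on day 2, 0.0643 and 0.0767 on day 3 and 5.67 and 5.42 on day 5. All 4 values of days 2 and 3 were below the Normal pair, and the gene fell by 1.59 on day 3 and rose by 1.02 on day 5 (adjusted p = 0.038), the rise being called under neither of the other scalings. E2f1, the transcription factor, was at 1.76 and 2.60 TPM in the Normal libraries, 1.71 and 0.831 on day 1, 0.338 and 0.446 on day 2, 0.523 and 0.711 on day 3 and 3.57 and 2.71 on day 5. It fell by 1.18 on day 2 and fell by 0.96 on day 3, and its day 5 values both lay above the Normal pair without passing the test (adjusted p = 0.25). The cyclin genes Ccne1 and Ccne2, whose products start S phase with Cdk2, were among the 7 members that did not pass on day 3, with Orc1, Gins2, Rfc5, Rpa2 and Rrm2. Ccne1 was at 3.41 and 5.46 TPM in the Normal libraries, 4.39 and 3.77 on day 1, 1.12 and 1.52 on day 2, 3.40 and 4.43 on day 3 and 7.79 and 7.54 on day 5. Ccne2 was at 2.06 and 4.03 TPM in the Normal libraries, 1.96 and 1.78 on day 1, 0.939 and 0.745 on day 2, 2.00 and 1.90 on day 3 and 6.52 and 4.01 on day 5. Their day 3 values overlapped or adjoined the Normal range, and both fell on day 2 only (day 3 log2 differences -0.13 and -0.41, adjusted p = 0.69 and 0.2).

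**Figure D2:**
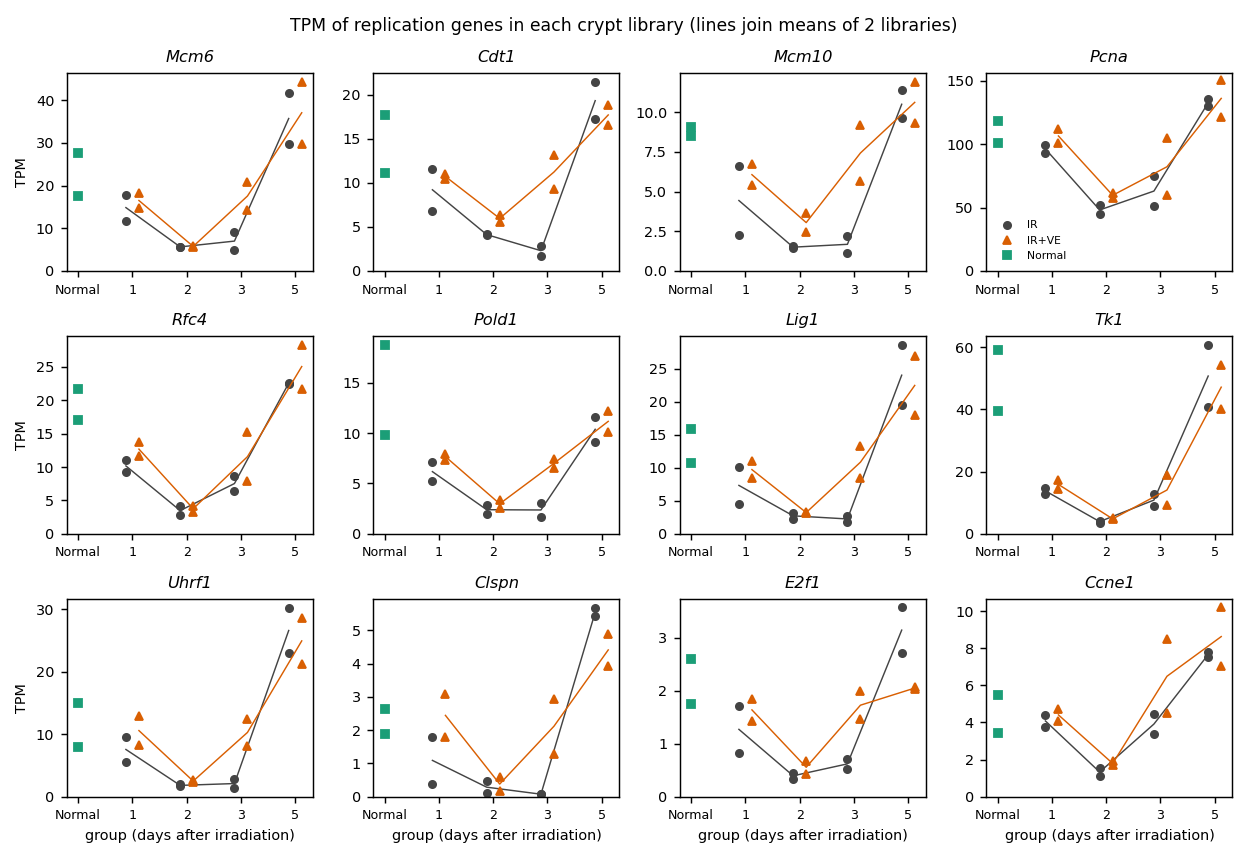
TPM of 12 named members in each crypt library on linear axes starting at 0, by group and day, with squares for Normal, circles for IR, triangles for IR+VE and lines joining the means of 2 libraries. The IR points are low on day 2, those of Cdt1 and Clspn lower still on day 3, and all are higher again by day 5. On day 3 the IR+VE points of Cdt1 (9.35 and 13.1 TPM) lie above those of IR (1.74 and 2.86 TPM).

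Single libraries set several of these counts. On day 1 the count was 11 without replicate 1 of IR day 1 (all genes 24.6% lower), and 1 without its replicate 2 (all genes 1.7%) or without replicate 2 of Normal (all genes 2.17%). On day 3 it was 17 without replicate 1 of IR day 3 (all genes 56.3%) and 19 without replicate 2 of Normal (all genes 57.7%). On day 5 it was 1 without replicate 1 of IR day 5 (all genes 8.92% higher) or of Normal (all genes 7.17%), 3 without replicate 2 of IR day 5 (all genes 10.3%) and 9 without replicate 2 of Normal (all genes 19%). On day 2 the range was 30 to 38 (all genes 24% to 43.7%). Without any test, 21 of the 39 members had both day 1 values below both Normal values (all genes 43.5%), all 39 had on day 2 (all genes 65.2%), 36 had on day 3 (all genes 79.3%), and 30 had both day 5 values above (all genes 48.2%).

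Successive days were then compared, without the Normal mean, though the Normal libraries stayed in the shared fit and each day's libraries serve in more than 1 comparison. From day 1 to day 2, 21 of 38 members fell (all genes 4.41%), with a median of -1.06 against -0.26 for all genes. Tk1 fell by 1.59, Uhrf1 fell by 1.58, Rfc5 fell by 1.50, Mcm5 fell by 1.41 and Rfc4 fell by 1.33, with adjusted p = 0.0065, 0.012, 0.0077, 0.019 and 0.011. All 4 clamp and loader genes and 4 of 5 nucleotide genes were among those that fell, and 3 of 6 MCM genes. This count was 1 without replicate 1 of IR day 1 (all genes 0.954% lower) or replicate 1 of IR day 2 (all genes 0.849%), 7 without replicate 2 of IR day 2 (all genes 1.59%) and 32 without replicate 2 of IR day 1 (all genes 16.4%).

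From day 2 to day 3 the members and the other genes parted. Of 38 members, 9 rose and none fell, while 1.74% of all genes rose and 30% fell, and the medians were 0.46 for members and -0.42 for all genes. Tk1 rose by 1.26 (adjusted p = 0.0061), Gins2 rose by 1.24 (adjusted p = 0.019), Ccne1 rose by 1.08 (adjusted p = 0.0091), Rfc5 rose by 1.03 (adjusted p = 0.016) and Rfc4 rose by 0.93 (adjusted p = 0.02). The others were Dut, Orc6, Tyms and Rfc3, so the loader and nucleotide groups gave 3 each and the MCM group gave none. With quantile normalization the count was 26 (all genes 16% higher) and with mitochondrial genes removed it was 20 (all genes 6.31%), all higher. It was 11 without replicate 1 of IR day 3 (all genes 1.7%), 7 without replicate 2 of IR day 2 (all genes 2.53%), 1 without replicate 1 of IR day 2 (all genes 0.443%) and 0 without replicate 2 of IR day 3 (all genes 0.995%).

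From day 3 to day 5 all 38 members rose, 34 of them by at least 2-fold, on a scale on which 78.6% of all genes rose (62.6% by 2-fold). The medians were 1.68 and 1.27. Uhrf1 rose by 3.19, Lig1 rose by 2.94, Cdt1 rose by 2.64, Clspn rose by 2.61 and Chaf1a rose by 2.60, with adjusted p from 2.0e-06 to 1.1e-05. The smallest rise was that of Ccne1 (0.83, adjusted p = 0.014), which became -0.67 with quantile normalization. With that normalization 12 members rose (all genes 26%) and 1 fell (all genes 20.2%), and the members' median was 0.27. With mitochondrial genes removed 27 rose (all genes 50.6%). Leaving out any 1 library gave 33 to 39 genes (all genes 68.7% to 77.3%).

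**Figure D3:**
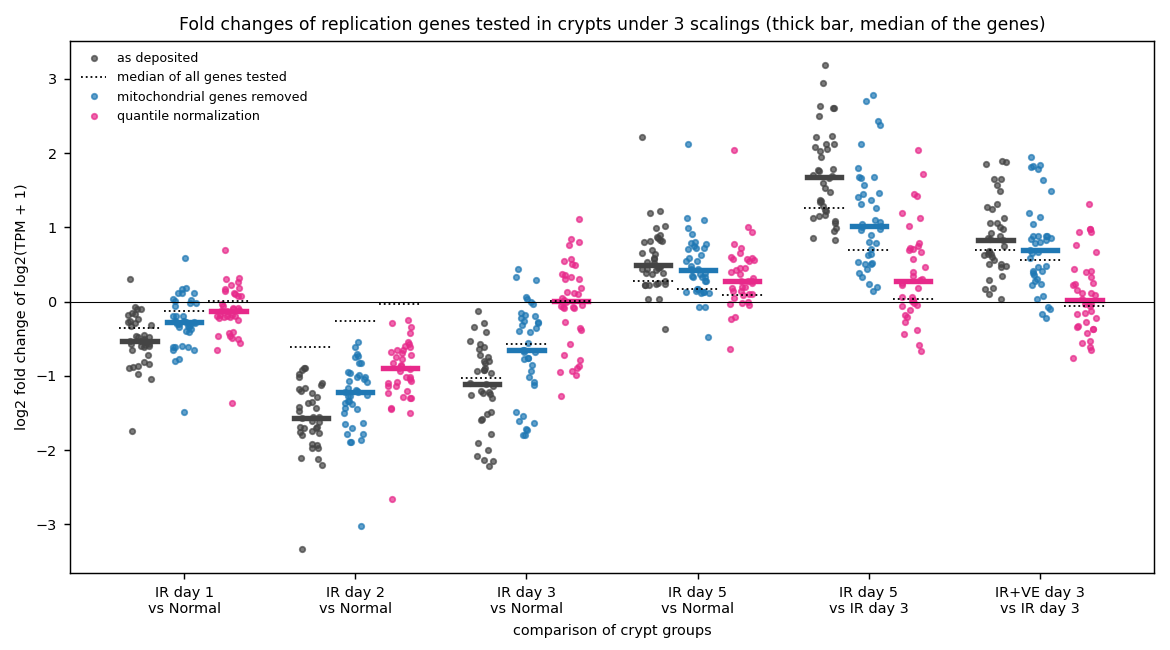
Log2 difference of each member tested (38, or 39 with mitochondrial genes removed) in 6 crypt comparisons under 3 scalings of the same TPM values (as deposited, mitochondrial genes removed, quantile normalised), with a thick bar at the members' median and a dotted line at the median of all genes. The day 2 points lie below 0 under each of the 3 scalings, while with quantile normalization those of day 3 and of the drug comparison fall on both sides of 0 around medians of 0.01 and 0.02.

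The other genes of the pathway and of cell division, from lists that hold none of the members, were read beside them. Of 47 other replication genes tested, 39 fell and 1 rose on day 2, 35 fell and 1 rose on day 3, and 27 rose in IR+VE against IR on day 3 (all genes 46% and 70.5% lower on days 2 and 3, and 52.3% higher with the drugs). The exception was Pold4, the small subunit of polymerase delta, which rose by 0.88 on day 2 and 1.20 on day 3 (adjusted p = 0.0047 and 2.2e-04) while Pold1, of the same enzyme, fell. E2f2 fell by 2.61 on day 2 and 2.66 on day 3. All 26 mitosis genes fell on days 2 and 3 (medians -1.95 and -1.84), and 12 had fallen on day 1, when 2 members had (all genes 10.7%). Whether the 2 lists differed was not tested. Mki67, a marker of cycling cells, was at 4.29 and 7.14 TPM in Normal, 0.394 and 0.189 on day 2, 0.0699 and 0.0955 on day 3 and 12.8 and 9.82 on day 5. Among 9 p53 targets, 8 rose on day 1 (all genes 2.1%) and 5 each on day 2 (all genes 6.9%) and day 3 (all genes 3.93%). Cdkn1a, the p21 inhibitor of Cdk2, was at 69.2 and 63.0 TPM in Normal and 187 and 202 on day 1, a rise of 1.54 (adjusted p = 6.3e-05). Ccnd2, a G1 cyclin, rose by 2.10 on day 1 and 1.88 on day 2.

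Markers of cell types moved with the same days. The summed crypt base stem cell markers (Lgr5, Ascl2, Olfm4 and Smoc2) were at 223 to 416 TPM in Normal, 42.8 to 46.9 on day 1, 10.1 to 14.0 on day 2, 14.4 to 17.7 on day 3 and 121 to 169.8 on day 5. Enterocyte markers (Alpi, Fabp1, Apoa1, Sis and Rbp2) were at 5399 to 10317 in Normal, 18869 to 22393 on day 2 and 1428 to 4213 on day 3, so they were high with low replication genes on day 2 and low with them on day 3. On days 1 and 5 they were at 13820.1 to 15101 and 8697 to 10139.8 TPM. Paneth cell markers were at 2547 to 6009 TPM in Normal, 5483 to 5969 on day 1, 1283 to 1888 on day 2, 2759 to 4526 on day 3 and 2201 to 2775 on day 5, goblet cell markers at 4170.0 to 4943 TPM in Normal, 5325 to 6024 on day 1, 5075 to 6613 on day 2, 3126 to 3349.7 on day 3 and 4474 to 5699 on day 5, and enteroendocrine markers at 239.9 to 331 TPM in Normal, 234 to 444 on day 1, 225 to 266 on day 2, 135 to 166 on day 3 and 57.3 to 107 on day 5. Tuft cell markers were at 1.36 to 1.97 TPM in Normal, 0.821 to 1.87 on day 1, 0.861 to 0.995 on day 2, 0.590 to 0.595 on day 3 and 0.790 to 0.900 on day 5. B and plasma cell markers were at 97.5 to 156 TPM in Normal, 11.8 to 14.3 on day 1, 4.49 to 9.41 on day 2, 3.94 to 7.22 on day 3 and 0.344 to 0.545 on day 5. They were below Normal on each day, day 5 included. T cell markers were at 20.5 to 39.7 TPM in Normal, 8.79 to 15.9 on day 1, 24.3 to 27.2 on day 2, 14.8 to 43.1 on day 3 and 0.437 to 1.03 on day 5. Myeloid cell markers were at 22.4 to 31.3 TPM in Normal, 8.05 to 16.2 on day 1, 9.87 to 12.6 on day 2, 14.4 to 30.4 on day 3 and 3.79 to 10.3 on day 5. Those of muscle, fibroblasts and endothelium were at 2.46 to 4.98 TPM in Normal, 0.744 to 2.45 on day 1, 0.704 to 1.50 on day 2, 0.890 to 0.970 on day 3 and 0.348 to 0.425 on day 5. The part of these markers, and of the mitochondrial share, in the members' changes was not tested.

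The next question was whether VPA and EPZ6438 altered these genes in irradiated crypts. Members rose with the drugs on day 3, and none passed the test on days 1, 2 or 5. On day 3, 22 of 38 rose, 14 of them by at least 2-fold, among 52.3% of all genes that rose (31.6% by 2-fold), and the median was 0.84 against 0.69. The share of members called thus lay close to that of all genes. On the deposited scale all 6 MCM genes and all 4 chromatin genes rose, 2 each of the licensing, firing, polymerase, nucleotide and S phase control genes, and 1 each of the clamp and lagging strand groups. With quantile normalization the only members that rose were Cdt1, Lig1, Uhrf1, Chaf1a and Clspn, so that no MCM, firing, clamp, polymerase or nucleotide gene passed. With mitochondrial genes removed 5 of the 6 MCM genes passed, Mcm5 being the exception, and none of the clamp group.

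Cdt1 measured 9.35 and 13.1 TPM in IR+VE and 1.74 and 2.86 in IR on day 3, a rise of 1.89 (standard error 0.28, adjusted p = 3.0e-04). Uhrf1 was at 8.09 and 12.5 against 1.40 and 2.77, and rose by 1.88 (adjusted p = 7.2e-04). Lig1 was at 8.40 and 13.3 against 1.79 and 2.69, and rose by 1.85 (adjusted p = 8.2e-04). In each of these genes both treated values were higher than both IR values. Mcm10, at 5.64 and 9.23 against 1.14 and 2.22, rose by 1.65 (adjusted p = 0.0017). Mcm6, at 14.3 and 20.8 against 4.86 and 9.13, rose by 1.25 (adjusted p = 0.0049). Chaf1a rose by 1.65 and Mcm4 rose by 1.58. Of these, the rises of Mcm10, Mcm6 and Mcm4 were not called with quantile normalization. These genes kept apart from the IR pair, whereas Tk1, at 9.23 and 18.9 against 8.99 and 12.7, and Pcna, at 59.6 and 105 against 51.3 and 74.7, overlapped it (log2 differences 0.29 and 0.35, adjusted p = 0.45 and 0.24).

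The day 3 drug count rested on the scaling and on single libraries. With quantile normalization it was 5 (all genes 16.2% higher) and the members' median was 0.02, and the differences of Cdc6 and E2f1 were -0.04 and -0.03. With mitochondrial genes removed it was 20 (all genes 39.2%). The count was lower without replicate 1 of IR day 3 or replicate 2 of IR+VE day 3. It was higher without replicate 2 of IR day 3 or replicate 1 of IR+VE day 3. The mitochondrial share was 25.4 to 41.5% in IR+VE and 37.9 to 48.4% in IR. Within it, mt-Atp8 alone was at 143567 to 231708 TPM in IR+VE and 207735 to 243105 TPM in IR. Stem cell markers summed to 19.3 to 37.8 TPM against 14.4 to 17.7, epithelial markers to 7454 to 7914 TPM against 3886 to 5943 and enteroendocrine markers to 276 to 304 TPM against 135 to 166. Paneth cell markers summed to 4579 to 7585 TPM against 2759 to 4526, tuft cell markers to 2.23 to 2.50 TPM against 0.590 to 0.595 and those of muscle, fibroblasts and endothelium to 2.41 to 5.62 TPM against 0.890 to 0.970. All 6 of these sums were higher in both treated libraries than in both IR libraries. The B and plasma cell sum was lower in both treated libraries than in both IR libraries, and the goblet, enterocyte, T cell and myeloid sums overlapped. The part of the markers and of the mitochondrial share in the members' differences was not tested. Among the other lists, 19 of 26 mitosis genes and 4 of 9 p53 targets rose (all genes 52.3%), Mki67 was at 2.78 and 2.97 TPM in IR+VE, Myc rose by 2.27 (adjusted p = 2.3e-04) and Ccnd1 by 1.12 (adjusted p = 0.0038).

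On day 1 no member passed (limma, all genes 0.00926%, and 2 members and 13.2% of all genes at an unadjusted p under 0.05), and the median was 0.16. The count stayed at 0 under the other scalings, filters and pseudocount, and it was 2 without replicate 1 of IR day 1 (all genes 13.2% higher). On day 2 no member passed (limma, 1 member and 36.7% of all genes at an unadjusted p under 0.05, and 0 members under each alternative), although 14.6% of all genes were higher, with medians of 0.15 for members and 0.42 for all genes. On day 5 no member passed (limma, all genes 0.0185%, 0 members and 1.65% of all genes at an unadjusted p under 0.05, and 0 members under each alternative), and the median was 0.03. Averaged over the 4 days, 13 members rose, none by 2-fold, with 54.8% of all genes higher and medians of 0.30 and 0.36. Mcm10 rose by 0.71, Ccne2 rose by 0.65, Uhrf1 rose by 0.64, Cdt1 rose by 0.61 and Lig1 rose by 0.60, with adjusted p from 0.0023 to 0.0097. With quantile normalization 1 member was lower (all genes 6.42%) and none higher (all genes 10.2%). The direct test of whether the drug difference varied with the day called 1 member, Cdt1 (adjusted p = 0.0475, all genes 1.75%), whose differences were 0.24, 0.44, 1.89 and -0.11 on days 1, 2, 3 and 5. That call was not made with quantile normalization, with mitochondrial genes removed or without the filter on low genes. A pseudocount of 0.1 TPM gave 3 calls, for which the share of all genes is not given here.

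In organoids all 39 members were tested. The medium with all components, 8C, was compared with ENR, the standard medium, and with 8C-VE, which lacks both epigenetic drugs. Over all libraries 6 members fell against ENR and 15 against 8C-VE. Against ENR these were Mcm10 (-0.64, adjusted p = 0.014), Tk1 (-0.63, adjusted p = 0.018), Cdt1 (-0.63, adjusted p = 0.013), Cdc6 (-0.59, adjusted p = 0.043), Mcm4 (-0.55, adjusted p = 0.043) and Pold1 (-0.47, adjusted p = 0.04). Of all genes, 9.7% fell, and the medians were -0.31 for members and 0.08 for all genes. The 15 against 8C-VE stand beside 6.27% of all genes lower, with medians of -0.57 for members and 0.01 for all genes. They were all 6 MCM genes, Orc1, Cdc6 and Cdt1 of licensing, Mcm10 and Cdc45 of firing, Pole and Pold1, Lig1, and Tk1. None changed by 2-fold in either comparison. The 8C libraries serve in both.

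Markers of cell types also differed between these media. Crypt base stem cell markers summed to 1917 to 3538 TPM in ENR, 1409 to 2566 in 8C-VE and 453 to 1483 in 8C, Paneth cell markers to 2874 to 4088 TPM in ENR, 3482 to 5708 in 8C-VE and 619 to 1455 in 8C, and tuft cell markers to 3.59 to 11.2 TPM in ENR, 2.13 to 5.86 in 8C-VE and 1.17 to 1.70 in 8C. Paneth and tuft sums in 8C lay below all those of the other two media, and the stem cell sums in 8C below all of ENR and overlapping 8C-VE. Enterocyte sums were 1954 to 9669 TPM in ENR, 1157 to 3254 in 8C-VE and 1185 to 3535 in 8C, and goblet sums 2429.8 to 3736 TPM in ENR, 2101 to 4493 in 8C-VE and 1712 to 2718 in 8C. Enteroendocrine sums were 602 to 977 TPM in ENR, 390.4 to 1156 in 8C-VE and 589.8 to 1637 in 8C, with overlap between all 3 media. Sums of muscle, fibroblast and endothelium markers were 0.298 to 0.724 TPM in ENR, 0.262 to 0.912 in 8C-VE and 1.01 to 4.89 in 8C, every 8C library above every one of the other two media, and myeloid sums were 2.71 to 5.99 TPM in ENR, 4.45 to 7.59 in 8C-VE and 1.63 to 16.3 in 8C. In the media compared next, stem cell sums were 974 to 1516 TPM in 8C-V, 784 to 2864 in 8C-E, 1667 to 2095 in ENR+VE and 1692 to 2448 in 8C without EGF, and Paneth sums were 2595 to 3745, 1774 to 3058, 1004 to 1165 and 1793 to 2386 TPM in the same order. Enterocyte, enteroendocrine and tuft sums were 1801 to 3829.8, 871 to 1982 and 3.42 to 14.8 TPM in 8C-V, 1035 to 3098, 289 to 613 and 1.02 to 2.63 TPM in 8C-E, 8209.8 to 9204, 1301 to 1353 and 4.80 to 6.15 TPM in ENR+VE, and 384 to 403, 1149.6 to 1505 and 1.99 to 3.34 TPM in 8C without EGF. Of these the Paneth sums of 8C-V, 8C-E and 8C without EGF lay above all of 8C. So did the stem cell sums of 8C without EGF and the tuft sums of 8C-V and of 8C without EGF. The enterocyte sums of 8C without EGF lay below all of 8C. In ENR+VE the Paneth sums lay below all of ENR and the enteroendocrine sums above all of ENR. Epithelial sums in ENR+VE (6941 to 7076 TPM) lay below all of ENR (8179 to 12737), and those of muscle, fibroblasts and endothelium (2.16 to 3.53 TPM) above all of ENR. Goblet sums in 8C without EGF (1572 to 1612 TPM) lay below all of 8C. T, B and plasma cell markers stayed under 1 TPM in every organoid library. The part of these markers in the members' differences was not tested.

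The lowest to highest levels over 7 libraries show how far the groups ran into each other. Mcm5 ran over 139 to 262 TPM (median 188) in ENR, 42.0 to 192 TPM (median 149.8) in 8C and 139 to 256 TPM (median 238) in 8C-VE. The groups overlapped, with the 8C median lowest, and Mcm5 fell by 0.85 against 8C-VE (standard error 0.28, adjusted p = 0.038). Among the other ring genes, Mcm2 ran over 73.8 to 119.8 TPM (median 87.1) in ENR, 31.3 to 108 TPM (median 78.9) in 8C and 81.1 to 137 TPM (median 114) in 8C-VE. Mcm3 ran over 149.7 to 209.6 TPM (median 167) in ENR, 49.2 to 176 TPM (median 147) in 8C and 152 to 247 TPM (median 228) in 8C-VE. In Mcm4 the levels were 113 to 140.0 TPM (median 120.2) in ENR, 41.3 to 128 TPM (median 93.1) in 8C and 121 to 184 TPM (median 147) in 8C-VE. Its differences were -0.55 from ENR and -0.82 from 8C-VE (adjusted p = 0.0082). For Mcm6 they were 143 to 248 TPM (median 182) in ENR, 67.0 to 210.0 TPM (median 179.7) in 8C and 184 to 318 TPM (median 231) in 8C-VE. For Mcm7 they were 166 to 298 TPM (median 181) in ENR, 73.0 to 209.6 TPM (median 187) in 8C and 181 to 308 TPM (median 244) in 8C-VE. In each MCM gene the 8C range overlapped both others and reached below them, and its lowest value was replicate 7.

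Cdc6 levels were 19.2 to 26.9 TPM (median 21.6) in ENR, 6.84 to 22.0 TPM (median 15.9) in 8C and 20.3 to 31.1 TPM (median 30.0) in 8C-VE, and it fell by 0.89 against 8C-VE (standard error 0.22, adjusted p = 0.0068), the largest fall of the 39. Cdt1 levels were 83.5 to 138 TPM (median 87.1) in ENR, 36.9 to 84.8 TPM (median 74.3) in 8C and 90.7 to 158 TPM (median 99.3) in 8C-VE. Every 8C value of Cdt1 was below every 8C-VE value, as was every value of Pold1, at 81.3 to 97.4 TPM (median 89.2) in ENR, 35.8 to 90.5 TPM (median 62.2) in 8C and 91.6 to 117 TPM (median 112) in 8C-VE, and of these 39 genes only this pair was so separated (all genes 1.79%). Cdt1 fell by 0.82 (adjusted p = 0.0056) and Pold1 fell by 0.74 (adjusted p = 0.0045). Cdc45 levels were 27.2 to 36.1 TPM (median 30.9) in ENR, 10.5 to 34.6 TPM (median 20.8) in 8C and 27.6 to 51.2 TPM (median 37.3) in 8C-VE, and it fell by 0.76 (adjusted p = 0.036). Pole, the leading strand polymerase, ran over 14.0 to 20.9 TPM (median 15.7) in ENR, 5.46 to 21.5 TPM (median 8.95) in 8C and 13.1 to 23.9 TPM (median 17.3) in 8C-VE. Lig1 ran over 108 to 148 TPM (median 119) in ENR, 38.1 to 130.4 TPM (median 108) in 8C and 111 to 168 TPM (median 156) in 8C-VE. Tk1 ran over 64.7 to 91.7 TPM (median 73.9) in ENR, 24.4 to 68.0 TPM (median 56.3) in 8C and 65.9 to 98.4 TPM (median 91.4) in 8C-VE. In these, too, the 8C groups overlapped the others, and the falls against 8C-VE were 0.77, 0.69 and 0.74 (adjusted p = 0.036, 0.032 and 0.01).

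Members that passed in neither comparison included both cyclins E and the clamp. Pcna ran over 343 to 565 TPM (median 438) in ENR, 210.4 to 529 TPM (median 475) in 8C and 350.3 to 536 TPM (median 488) in 8C-VE. E2f1 ran over 26 to 46.5 TPM (median 35.2) in ENR, 20.8 to 47.6 TPM (median 42.4) in 8C and 36.0 to 50.6 TPM (median 40.3) in 8C-VE. The medians of these genes in 8C were not the lowest of the 3 media. Ccne1 was at 26.6 to 42.4 TPM (median 29.3) in ENR, 19.5 to 59.7 TPM (median 54.3) in 8C and 21.4 to 45.7 TPM (median 29.4) in 8C-VE, with log2 differences of 0.46 from ENR (adjusted p = 0.13) and 0.40 from 8C-VE (adjusted p = 0.29), the only positive one of the 39 against 8C-VE. Ccne2 was at 7.25 to 17.7 TPM (median 12.5) in ENR, 4.26 to 21.0 TPM (median 13.0) in 8C and 5.30 to 23.6 TPM (median 12.4) in 8C-VE. The groups overlapped in both cyclins. Rfc4 was at 70.3 to 121 TPM (median 102) in ENR, 38.5 to 134 TPM (median 86.7) in 8C and 81.1 to 132 TPM (median 118) in 8C-VE. Chaf1a levels were 62.1 to 86.2 TPM (median 74.8) in ENR, 27.1 to 90.4 TPM (median 48.7) in 8C and 56.2 to 109 TPM (median 73.8) in 8C-VE. For Clspn they were 18.4 to 25.1 TPM (median 20.6) in ENR, 7.36 to 25.6 TPM (median 17.4) in 8C and 18.3 to 33.1 TPM (median 28.1) in 8C-VE. Their ranges overlapped between all 3 media.

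**Figure D4:**
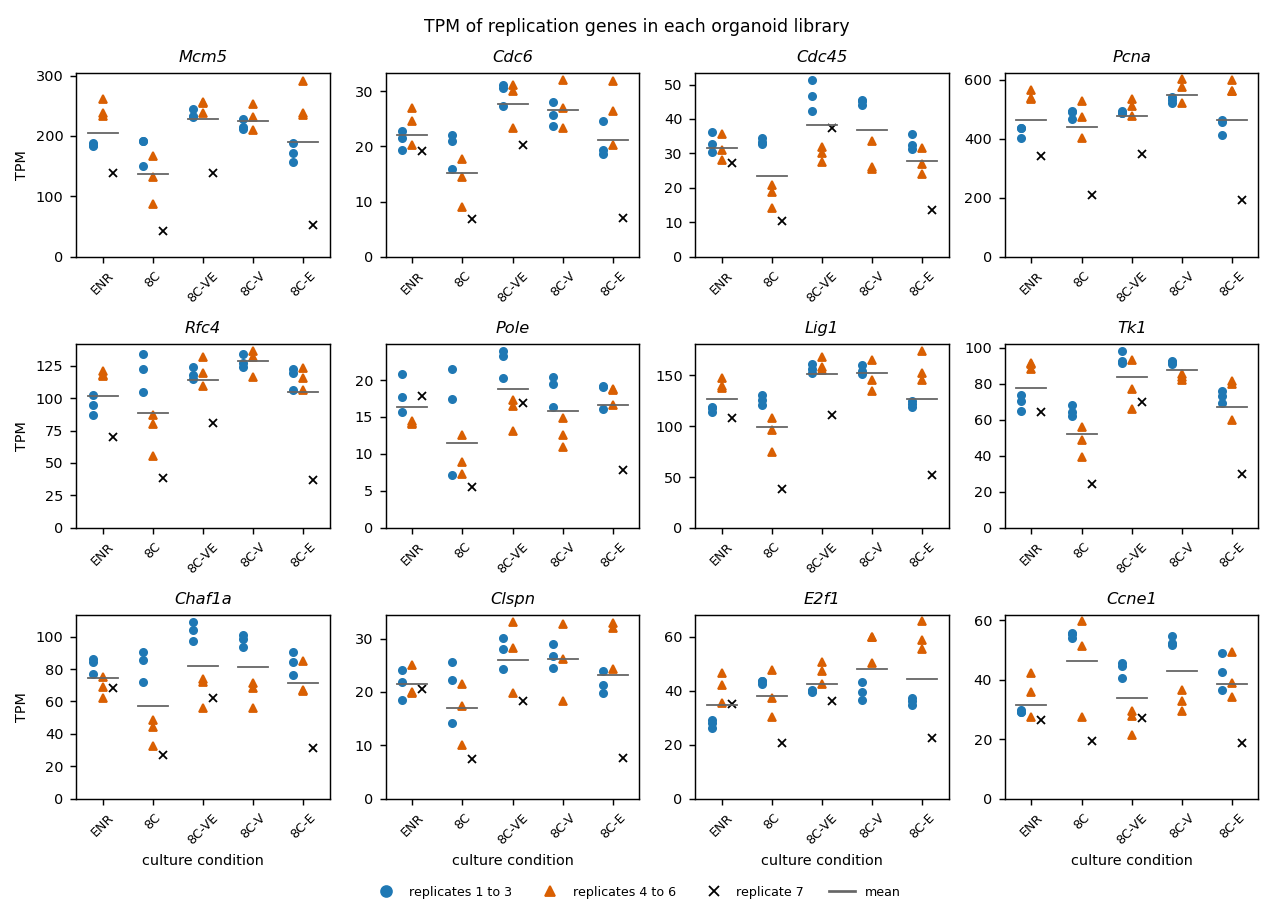
TPM of 12 named members in each library of 5 organoid media on linear axes starting at 0, with circles for replicates 1 to 3, triangles for replicates 4 to 6, crosses for replicate 7 and a bar at the mean. For Mcm5 the 8C points run from 42.0 to 192 TPM and those of ENR from 139 to 262 TPM, and in all 12 panels the lowest 8C point is replicate 7.

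The replicate numbers split these results. Replicates 1 to 3 and 4 to 6 were also compared separately. Against ENR, replicates 1 to 3 gave 9 members higher in 8C (all genes 22.8%) and none lower (all genes 10.7%), while replicates 4 to 6 gave 24 lower (all genes 12.9%) and 1, Rrm2, higher (all genes 36.7%). The share of members called higher in replicates 1 to 3 was thus close to that of all genes. Of the 39 estimates, 28 were positive in replicates 1 to 3 and 2 in replicates 4 to 6. The 9 were Orc6, Gins2, Prim1, Rpa2, Rrm2, Dut, Chaf1b, E2f1 and Ccne1. Ccne1 was at 29.5 ± 0.439 TPM (SD, n = 3) in ENR and 55.2 ± 0.831 TPM (SD, n = 3) in 8C over replicates 1 to 3, and at 35.2 ± 7.53 TPM (SD, n = 3) and 46.2 ± 16.7 TPM (SD, n = 3) over replicates 4 to 6. Rfc4 was at 94.8 ± 7.66 TPM (SD, n = 3) and 121 ± 14.8 TPM (SD, n = 3) over replicates 1 to 3, and at 119 ± 2.12 TPM (SD, n = 3) and 74.1 ± 16.5 TPM (SD, n = 3) over replicates 4 to 6. The former difference of Rfc4 was 0.34 and the latter -0.69. Against 8C-VE, 10 were lower (all genes 6.4%) and 1 higher (Ccne1, all genes 16.4%) in replicates 1 to 3, and 25 were lower (all genes 9.55%) and none higher in replicates 4 to 6. The estimates of 9 members had opposite signs in the sets. Those of Chaf1b, Dut, E2f1, Gins2, Prim1, Rfc3 and Rfc4 were positive in replicates 1 to 3 and negative in replicates 4 to 6, and those of Ccne2 and Rrm2 the reverse. Gins2 differed by 0.08 and -0.66, and Rrm2 by -0.20 and 0.35. Mcm5 differed by -0.42 and -0.99 there, Cdt1 by -0.33 and -1.15, and Cdc6 by -0.58 and -1.02. Whether the sets differ was not tested.

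**Figure D5:**
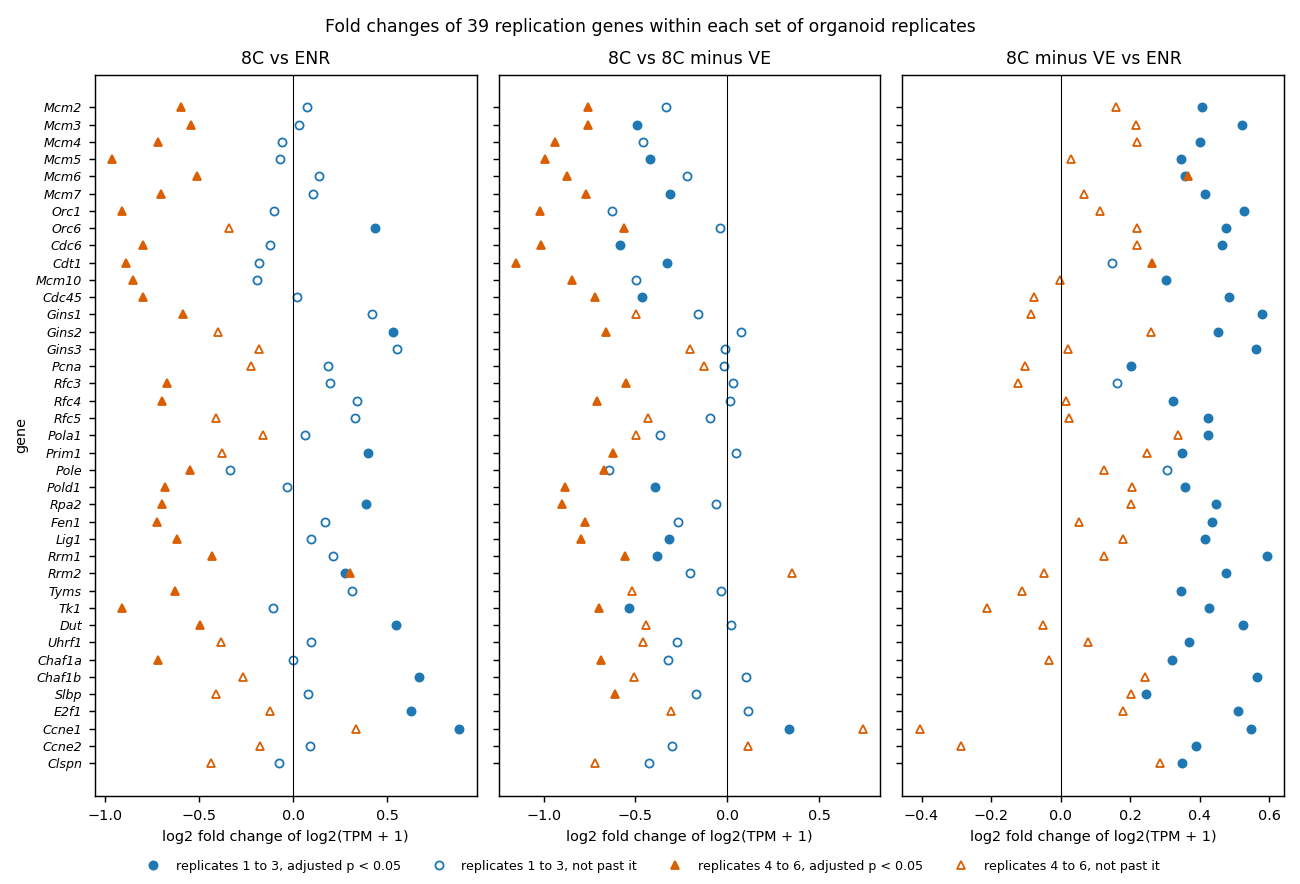
Log2 difference of each of the 39 members for 8C against ENR, 8C against 8C-VE and 8C-VE against ENR, over replicates 1 to 3 (circles) and replicates 4 to 6 (triangles), filled where limma's adjusted p is under 0.05. For 8C against ENR 9 filled circles lie above 0 and 24 filled triangles below it, and for 8C against 8C-VE 10 filled circles and 25 filled triangles lie below 0.

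Replicate 7 stood apart in 8C and 8C-E. MCM genes summed to 304 TPM in replicate 7 of 8C and 398 TPM in replicate 7 of 8C-E, against 578 to 1601 in the other organoid libraries, and the mitochondrial share was 4.69 to 6.64% in the replicate 7 libraries. Without these libraries, 8C against ENR gave 2 members higher (all genes 26.3%) and 4 lower (all genes 9.11%), and 8C against 8C-VE gave 14 lower (all genes 5.8%). Beside the members, 8 of 51 other replication genes and 1 of 26 mitosis genes fell in 8C against 8C-VE (all genes 6.27%). In that comparison 5 of 9 p53 targets rose (all genes 17.2%), among them Cdkn1a by 1.32 (adjusted p = 6.0e-04), and Myc rose by 0.53 (adjusted p = 0.029).

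Next, 8C-VE was set against ENR. Over all libraries every member's log2 difference was positive (0.04 to 0.38, median 0.24 against 0.08 for all genes), and 1 passed, Pold1 (0.27, standard error 0.07, adjusted p = 0.032, all genes 5.85% higher). Same-numbered libraries deviated together here, and with the replicate number as a block 13 members rose (all genes 12.7%). The sets gave 36 higher in replicates 1 to 3 (all genes 27.3%) and 2 (Mcm6 and Cdt1) in replicates 4 to 6 (all genes 15%), where 12 of the 39 estimates were negative. With replicate 7 left out the count was 6 (all genes 8.86%), and with quantile normalization it was 0 (all genes 4.73%).

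The drugs were then taken out one at a time. Without VPA, 6 of 39 members rose against 8C, Cdc6 (0.85, adjusted p = 0.024), Tk1 (0.82, adjusted p = 0.013), Mcm4 (0.82, adjusted p = 0.021), Cdt1 (0.72, adjusted p = 0.032), Mcm7 (0.70, adjusted p = 0.039) and Pold1 (0.64, adjusted p = 0.032). Of all genes 2.92% were higher, and the medians were 0.61 and -0.05. In 8 members every 8C-V value was above every 8C value (all genes 1.63%). Tk1 ran over 82.1 to 93.0 TPM (median 88.3) in 8C-V and 24.4 to 68.0 TPM (median 56.3) in 8C, and Cdc6 over 23.3 to 32.0 TPM (median 26.4) and 6.84 to 22.0 TPM (median 15.9). With the replicate block 17 members rose (all genes 5.34%). Replicates 1 to 3 gave 3 higher (all genes 2.59%), and replicates 4 to 6 gave 28 higher (all genes 10.2%) and 1, Rrm2, lower (all genes 24.3%). Without replicate 7 of 8C the count was 10 (all genes 2.66%), as it was with quantile normalization (all genes 6.14%).

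Without EPZ6438 no member passed against 8C (limma, all genes 6.77%, and 3 members and 14.7% of all genes at an unadjusted p under 0.05), with a median of 0.36. Tk1 ran over 29.9 to 81.6 TPM (median 73.5) in 8C-E and Cdc6 over 7.00 to 31.8 TPM (median 20.3), ranges that overlapped those of 8C. Replicates 4 to 6 alone gave 30 members higher (all genes 4.54%) and replicates 1 to 3 gave 0 (all genes 1.99%). Against 8C-VE, neither 8C-V (limma, all genes 6.05%) nor 8C-E (all genes 10.6%) had a member past the threshold over all libraries. At an unadjusted p under 0.05 there were 1 (all genes 14.1%) and 2 (all genes 20.8%), with medians of 0.02 and -0.20. Same-numbered libraries deviated together in both comparisons, and with the block 8C-V gave 2 members higher (all genes 14.7%) and 4 lower (all genes 13.3%) and 8C-E gave 6 lower (all genes 12.5%). For 8C-E, replicates 1 to 3 gave 20 lower (all genes 9.72%) and replicates 4 to 6 gave 1 higher (all genes 7.14%). The test of whether the effect of VPA depended on EPZ6438 called no member (limma, all genes 0.653%, and 0 members and 3.81% of all genes at an unadjusted p under 0.05), though all 39 estimates were negative (median -0.38).

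With both drugs added to ENR 2 members fell, Cdc6 and Mcm4, with 3.41% of all genes lower and medians of -0.11 and 0.09. Cdc6 was at 16.4, 16.2 and 12.6 TPM in ENR+VE against 19.2 to 26.9 TPM (median 21.6) in ENR, and it fell by 0.53 (standard error 0.14, adjusted p = 0.019). Mcm4 was at 96.4, 102 and 72.4 TPM against 113 to 140.0 TPM (median 120.2), and it fell by 0.47 (standard error 0.12, adjusted p = 0.015). In 4 members every ENR+VE value was below every ENR value (all genes 4.5%). Without replicate 3 of ENR+VE the count was 0 (all genes 12.8% higher and 1.6% lower). Against ENR replicates 1 to 3 it was 3 higher (all genes 22.8%) and 2 lower (all genes 11.7%). Against ENR replicates 4 to 6 it was 17 lower (all genes 9.54%). The test of whether the drugs acted differently in the 2 media called no member (limma, all genes 0.643%, and 1 member and 6.44% of all genes at an unadjusted p under 0.05), with a median of -0.46 against -0.09 for all genes.

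Taking out another component of 8C called no member over all libraries. Without EGF all 39 differences were positive (median 0.61), 13 members and 12.7% of all genes had an unadjusted p under 0.05 (limma, all genes 0.514% past the adjusted threshold), and in 14 every value lay above every 8C value (all genes 5.28%). Mcm5 was at 226, 229 and 232 TPM there and at 42.0 to 192 TPM (median 149.8) in 8C, a log2 difference of 0.88 with adjusted p = 0.38. Set against 8C replicates 4 to 6 alone, 28 members rose (all genes 5.87%), and against replicates 1 to 3 alone 7 rose (all genes 3.52%). Without Pexmetinib, an inhibitor of p38 and Tie2 kinases, 11 members and 13% of all genes had an unadjusted p under 0.05 (adjusted, all genes 0.591%, median 0.44). With replicate 7 of 8C left out, 1 member rose (all genes 0.297%). Without bFGF 1 member and 5.56% of all genes had an unadjusted p under 0.05 (adjusted, all genes 0.00779%, median 0.20). Without the GSK-3 inhibitor 0 members and 6.53% of all genes had (adjusted, all genes 0%, median 0.04), but against 8C replicates 1 to 3 alone 9 fell (all genes 10.3%). The same-numbered libraries here share only a number with 8C. In the order of the deposited columns, replicates 1 to 3 of these omissions stand among replicates 4 to 6 of 8C. No label says what that order marks.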

How the data were processed

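Gene-level TPM had been deposited by the authors, who trimmed reads (Trimmomatic 0.39), aligned them to mm10 (STAR 2.7.3a) and counted them with featureCounts, per the labels' processing notes; how TPM was computed from the counts is not given in the sources used here. Libraries were unstranded NEBNext Ultra, paired-end. TPM keeps no depth, so no counting interval was given.

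From the deposited TPM, limma 3.58.1 (R 4.3.3; trend and robust) was run on log2(TPM + 1) over genes whose mean in the fit reached 1 TPM, with Benjamini-Hochberg adjustment over all genes tested and a threshold of 0.05. The 9 crypt groups shared 1 fit. Each organoid comparison used its conditions alone. The script was tested on simulated data. Fold changes on this scale understate those of low genes. Alternatives were a 2-fold minimum, a pseudocount of 0.1 TPM, no filter, mitochondrial genes removed, quantile normalization, sets of replicates, a replicate block and each library left out where a group had 2 or 3. The replicate 7 omission and a crossed block were chosen after seeing the data.

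The members and all lists were chosen with earlier results of these data known. Full values were given for the member of each role with the largest difference, and for E2f1, Ccne1, Ccne2, Pcna and Mcm2 to Mcm7; elsewhere for up to 5 changed members. Same-numbered libraries deviated together (every correlation of deviations over 0.1) in 8C-VE against ENR (7 pairs, 0.31 to 0.64), 8C-V against 8C (6 pairs, 0.11 to 0.60), 8C-V against 8C-VE (6 pairs, 0.69 to 0.77) and 8C-E against 8C-VE (7 pairs, 0.65 to 0.78), a hint from the data, since no label says what a number marks.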

Additional observations from a re-analysis of the deposited data

Results flagged for a closer look

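Within groups of 6 or 7 organoid libraries, 10 of 90 values tested lay far from the rest of their group (Dixon's test), where chance marks about 1 in 20 groups. The genes were measured in the same libraries, so the 90 tests were not independent of each other. Replicate 7 held 9 of them, each the lowest of its group. In 8C, Pcna was at 210.4 TPM. In 8C-VE, Lig1 was at 110.6, Mcm3 at 152, Mcm5 at 139 and Pcna at 350.3 TPM. In 8C-E, Chaf1a was at 31.1, Pole at 7.83, Rfc4 at 37.0 and Tk1 at 29.9 TPM. The remaining value was the highest of its group, Mcm2 at 136 TPM in replicate 5 of 8C-V. In crypts, the test of whether the drug difference varied with the day called 1 of 38 members, Cdt1 (limma, adjusted p = 0.0475, all genes 1.75%), a call not made with quantile normalization, with mitochondrial genes removed or without the filter on low genes.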

How the results depend on the processing

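These are counts of members past the threshold in either direction, unless a log2 difference is named, with the share of all genes called the same way in parentheses where the report does not give it. The crypt day 1 count of 2 became 1 (Tk1 without Pold1 in the first 2 settings) with mitochondrial genes removed (2.61%), quantile normalization (2.86%), a pseudocount of 0.1 TPM (7.23%) or no filter (4.28%). Day 3 (31) became 18 with mitochondrial genes removed, 11 with quantile normalization (8 falls and 3 rises) and 20 at 2-fold. Day 5 (7) became 4 with quantile normalization (15.1%) or at 2-fold (10.2%), and 3 with the other pseudocount (17.6%) or no filter (8.6%), near or below the share of all genes. Day 2 against day 1 (21) became 5 without the filter (0.784%). Day 3 against day 2 (9) became 20, 26, 4 and 3 with mitochondrial genes removed, quantile normalization, 2-fold (0.954%) and no filter (0.68%). Day 5 against day 3 (38) became 13 with quantile normalization (12 rises and 1 fall). The drug count on day 3 (22) became 5 with quantile normalization and 14 at 2-fold. The drug mean over days (13 rises) became 8 with mitochondrial genes removed (30.5%), 1 with quantile normalization, a fall, and 0 at 2-fold. The interaction of drug and day (1) became 0, 0, 0 and 3 with mitochondrial genes removed, quantile normalization, no filter and the other pseudocount. For the interaction, shares of all genes at these settings are not given here, so its 3 calls cannot be set against them.

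With 1 library left out, counts ranged from 1 to 11 (day 1), 30 to 38 (day 2), 17 to 31 (day 3), 1 to 9 (day 5), 1 to 32 (day 2 against day 1), 0 to 11 (day 3 against day 2), 33 to 39 (day 5 against day 3), 0 to 2 (drug, day 1), 7 to 31 (drug, day 3) and 0 to 2 (ENR+VE). Quantile normalization turned the log2 differences on day 3 to 0.33 for Cdc6, 0.0272 for Mcm2, 0.18 for Mcm5, 0.30 for Mcm7 and 0.12 for Pcna, on day 5 against day 3 to -0.67 for Ccne1, -0.38 for Ccne2, -0.0559 for Cdc6 and -0.0140 for Pcna, with the drugs on day 3 to -0.0357 for Cdc6 and -0.0282 for E2f1, and over the days to -0.00779 for Pole. Of 1231 single-gene values rerun, 999 kept their direction and side of the threshold, 220 no longer passed and 12 turned; beyond these constructions, the cause was not tested.

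In the organoid fits over all libraries no member past the threshold changed by 2-fold, so those counts at 2-fold were 0. 8C against ENR (6) became 3 without the filter (6.41%) and 25 in replicates 4 to 6 (24 falls and 1 rise). 8C against 8C-VE (15) became 25 in replicates 4 to 6. 8C-VE against ENR (1) became 0 with quantile normalization, 6 without replicate 7, 36 in replicates 1 to 3 and 2 in replicates 4 to 6. 8C-V against 8C (6) became 10 with quantile normalization, 10 without replicate 7, 3 in replicates 1 to 3 and 29 in replicates 4 to 6. In replicates 4 to 6, 8C-E against 8C (0) became 30. Against 8C-VE, 8C-V became 1 in replicates 1 to 3 (11.6%), and 8C-E became 20 in replicates 1 to 3 and 1 in replicates 4 to 6. ENR+VE (2) became 5 against ENR replicates 1 to 3, 17 against replicates 4 to 6 and 5 with quantile normalization (12.4%). Against 8C replicates 1 to 3, the omissions of EGF, bFGF, Pexmetinib and the GSK-3 inhibitor gave 7, 3 (1 rise and 2 falls, 5.09% and 5.84%), 2 (rises, 5.61%) and 9, against replicates 4 to 6 those of EGF and Pexmetinib gave 28 and 1 (0.602%), and without replicate 7 that of Pexmetinib gave 1 (0.297%).

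With a replicate block, the paired comparisons gave 13 (8C-VE against ENR), 17 (8C-V against 8C), 6 (8C-V against 8C-VE) and 6 (8C-E against 8C-VE). Where libraries share only a number, the block gave 24 falls for 8C against 8C-VE (12.6%), 3 rises for 8C-E against 8C (2.22%), 4 for ENR+VE (2 rises and 2 falls, 21.7% and 14.5%), 1 rise for the omission of Pexmetinib (2.77%) and 4 falls for crypt day 1 (13.6%), and the other counts stayed within 1.5 times. Same-numbered crypt libraries of Normal and of days 1 and 2 deviated in opposite directions (correlations -0.20 and -0.16), and with the Normal numbers crossed the block gave 4 (15.5%) and 38 (49%).

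With the 2 motifs TTTCCCGC and TTTGGCGC alone, 29.4% of members and 1.8% of promoters held a match. Depth is unknown, and crypt groups of 2 limit what each comparison can show.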
